A study of Daucus carota subsp. sativus with 2 samples.

Results

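Auxin response factors (ARFs), Aux/IAA-type proteins and other auxin-induced proteins were followed in root RNA of 2 carrot varieties sold in India. Members were the rows of the deposited read count table whose protein name contains "auxin response factor", "auxin-responsive protein" or "auxin-induced protein". The rule found 66 of the 19838 transcripts in the table: 16 ARFs, 44 Aux/IAA-type transcripts and 6 transcripts named for SAUR or 15A-like proteins, which were kept apart. The orange carrot is labelled a hybrid and, in the series title, "modified"; the red carrot is labelled Delhi and "wild". Both are Daucus carota subsp. sativus, from roots, with no treatment. What the modification is, the age of the plants and how many roots were used are not given in the labels. Each variety has 1 poly(A)-selected library, with 7432754 counts in orange and 11310179 in red. No difference has a replicate check, and intervals in the text are 95% exact Clopper-Pearson intervals that cover counting error only. Variety, plant, tissue taken and library cannot be told apart in this design.

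ARFs are transcription factors that bind auxin response elements in promoters and activate or repress the genes beside them. Aux/IAA proteins bind ARFs and hold them in a repressed state together with TOPLESS co-repressors. Auxin joins Aux/IAA proteins to F-box receptors of the TIR1/AFB family, after which they are ubiquitinated and degraded, and many Aux/IAA genes and SAUR genes are themselves switched on quickly by auxin. These roles are best known from Arabidopsis; in storage roots auxin is known for its part in cambium activity and cell expansion.

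Libraries were brought to a common scale with median-of-ratios size factors, and folds are ratios of scaled counts, orange over red unless stated. Measured transcripts are those whose scaled counts average 10 or more over the libraries: 14868 in all, and 54 of the 66 members. A member was called where its scaled counts differed 2-fold or more with an interval that excluded equality. Over all measured transcripts, such calls came to 24.4% toward orange and 30.4% toward red; at 4-fold these shares were 12.4% toward orange and 19.6% toward red. Total-count scaling moved ratios by 0.42 on the log2 scale toward orange (log2 folds of transcripts at or near 0 counts move less, because of the pseudocount), and the shares at 2-fold were then 33.7% for orange and 24.6% for red. Marker lists of other tissue went with variety to differing degrees in the main scaling. The green tissue list (chlorophyll a-b binding proteins, photosystem proteins and the small chain of RuBisCO) had 41 of 45 transcripts measured, with 3 called toward orange and 33 toward red. It took 0.314% of counts in orange and 4.28% in red, and 4 of its members were at 0 in orange, RBCS and LHCA6 among them, against 0 members at 0 in red. The phloem list (6 of 9 measured, 1 called toward orange and 5 toward red) took 0.0497% of counts in orange and 0.312% in red, with 2 members at 0 in orange and 1 in red. The wall loosening list (30 of 40 measured, 20 called toward orange and 4 toward red) took 1.68% of counts in orange and 0.0754% in red, with 3 members at 0 in orange and 6 in red. Histones and other genes of dividing cells (32 of 46 measured, 13 called toward orange and 9 toward red) took 0.106% of counts in orange and 0.0453% in red, with 5 members at 0 in orange and 2 in red. Their calls were 40.6% toward orange and 28.1% toward red, the latter near the 30.4% over all transcripts. At 4-fold 5 were called toward orange and 6 toward red, and 2 transcripts held 53.0% of the list's orange counts. The top 2 transcripts held 68.1% of the wall loosening counts in orange and 43.6% in red. For the phloem list the top 2 held 90.1% in orange and 86.9% in red. Cytosolic ribosomal proteins, listed as a steady class (51 of 52 measured, 13 called toward orange and 2 toward red), took 1.26% of counts in orange and 0.593% in red. Their sum ratio was 1.59 and their median log2 fold 0.26. Their calls were 25.5% toward orange, near the 24.4% over all transcripts, and 3.92% toward red. The part of these lists in the auxin results was not tested. No list of genes that define root tissue was used, so the root label itself was not checked.

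Both families were higher in the orange library as a sum, and the Aux/IAA-type family more so. ARF transcripts took 0.15% of all counts in orange (0.147 to 0.153) and 0.063% in red (0.0616 to 0.0645). Their sums of 11158 counts in orange and 7126 in red gave a scaled ratio of 1.78 (1.73 to 1.84), which was 4.21 without the member of highest mean count, DCAR_025655. Aux/IAA-type transcripts took 0.516% of counts in orange (0.511 to 0.521) and 0.148% in red (0.146 to 0.151). Their sums of 38355 counts in orange and 16781 in red gave a ratio of 2.60 (2.56 to 2.65). By the same measure the ratio was 1.76 for the dividing cell list, near that of the ARFs, and 1.59 for cytosolic ribosomal proteins. It was 16.6 for wall loosening, 0.119 for phloem and 0.0548 for green tissue. In RNA of whole roots, more cells of a type and more RNA per cell cannot be told apart.

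Member by member, the families were mixed. Of 15 measured ARFs, 7 were called toward orange, 4 toward red and 4 in neither direction, which is 46.7% toward orange and 26.7% toward red, against 24.4% toward orange and 30.4% toward red over all measured transcripts. Of 36 measured Aux/IAA-type transcripts, 19 were called toward orange, 6 toward red and 11 in neither direction, which is 52.8% toward orange and 16.7% toward red. At 4-fold, 4 ARFs and 15 Aux/IAA-type transcripts were called toward orange, and 1 ARF and 4 Aux/IAA-type transcripts toward red. The 4-fold shares over all measured transcripts were 12.4% toward orange and 19.6% toward red. A transcript near 0 counts in 1 library reaches the minimum only through the other library, so its call follows from passing the minimum. Such Aux/IAA-type transcripts included rna8091 (31 counts in orange, 0 in red) and rna8096 (78 in orange, 1 in red). Toward red they included DCAR_021321 (0 in orange, 90 in red), rna37848 (2 in orange, 34 in red) and rna49663 (2 in orange, 23 in red). The shares over all measured transcripts hold such calls too. The median log2 fold was 0.73 for ARFs and 1.21 for Aux/IAA-type transcripts, beside -0.06 for all measured transcripts. With total-count scaling the ARFs split 8 higher in orange and 1 higher in red, and the Aux/IAA-type transcripts 25 toward orange and 6 toward red. In that scaling the shares over all measured transcripts were 33.7% toward orange and 24.6% toward red.

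**Figure D1:**
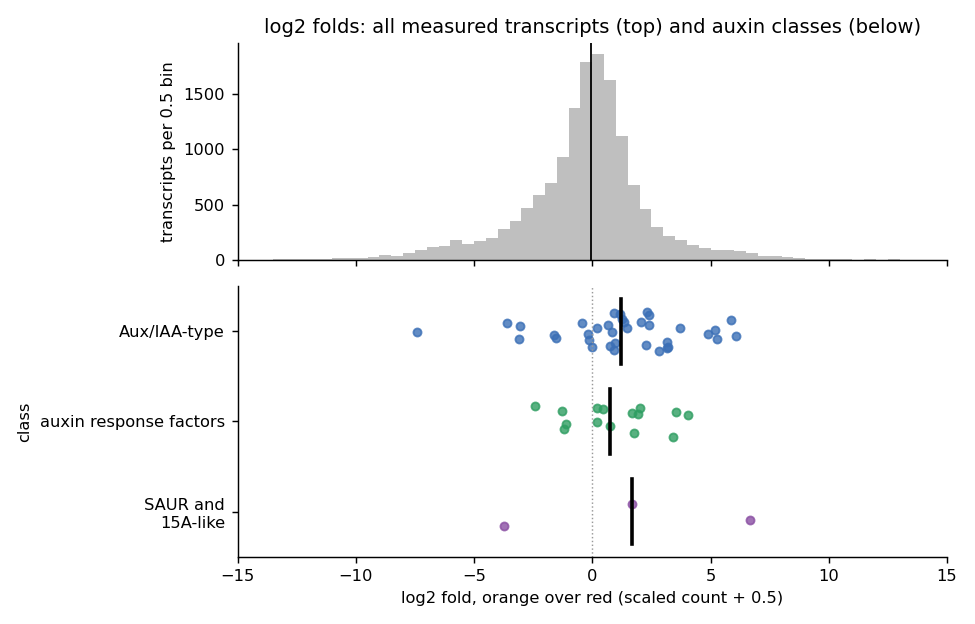
Log2 folds (orange over red, scaled count + 0.5). The upper panel counts all 14868 measured transcripts in bins of 0.5, with a line at their median of -0.06; the lower panel shows each measured member as a point, with a bar at the class median. The Aux/IAA-type points reach from -7.41 to 6.07 around a median of 1.21 and the ARF points from -2.41 to 4.05 around 0.73.

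Among the ARFs, which member led the family differed between libraries. DCAR_025655 had 1782 counts in orange and 4592 in red and was 2.26-fold higher in red (2.14 to 2.39). It held 16.0% of ARF counts in orange and 64.4% in red. Set against the sum of all other ARFs in the same library, which needs no scaling between libraries, its ratio was 0.19 in orange (0.181 to 0.2) and 1.81 in red (1.73 to 1.90). The red library therefore had more reads from this ARF than from the other 15 together, and the orange library far fewer. With total-count scaling its log2 fold was -0.76, under 2-fold, while its share of the family is the same under any scaling.

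The ARF with the most reads in orange was DCAR_007870, with 3527 counts in orange and 345 in red, an 11.6-fold difference (10.4 to 13.0). It held 31.6% of ARF counts in orange and 4.84% in red, and ranked 1 in orange and 4 in red. DCAR_017496 had 762 counts in orange and 52 in red (16.7-fold, 12.6 to 22.5), the highest ratio among ARFs. These transcripts and DCAR_017703 were the ARFs more than 10-fold higher in orange; DCAR_017703 had only 51 counts in orange and 5 in red, so its ratio of 11.6 has an interval of 4.66 to 37.3.

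A further 4 ARFs were 3.20-fold to 4.03-fold higher in orange. DCAR_020464 had 1883 counts in orange and 669 in red (3.20-fold, 2.93 to 3.51). DCAR_011930 had 1286 counts in orange and 425 in red (3.45-fold, 3.09 to 3.85), and DCAR_018803 had 631 in orange and 190 in red (3.78-fold, 3.21 to 4.47). The transcript matched to MTR_2g018690, a Medicago gene name, had 884 counts in orange and 250 in red (4.03-fold, 3.49 to 4.65). Without DCAR_025655, the remaining 15 ARFs summed to 9376 counts in orange and 2534 in red. Their ratio was 4.21 (4.03 to 4.40), against 1.78 with that transcript. This leaves out a member that was higher in red, and a sum without the orange leader DCAR_007870 was not taken.

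The other ARFs that were higher in red had few reads. DCAR_018826 had 17 counts in orange and 105 in red (5.42-fold higher in red, 3.23 to 9.66). The transcript matched to VIT_06s0004g03130, a grapevine gene name, had 53 counts in orange and 147 in red (2.44-fold higher in red, 1.77 to 3.40). A DCAR_015554 transcript (rna20899) had 64 counts in orange and 157 in red (2.15-fold higher in red, 1.60 to 2.93); the log2 folds of this pair, -1.28 and -1.10, became -0.86 and -0.69 with total-count scaling. A second transcript of that gene name (rna9134) had 1 count in orange and 7 in red and was the ARF below the minimum. The 4 ARFs in neither direction had ratios between 1.14 and 1.68, among them DCAR_022437 with 11 counts in each library (1.14-fold, 0.448 to 2.90).

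**Figure D2:**
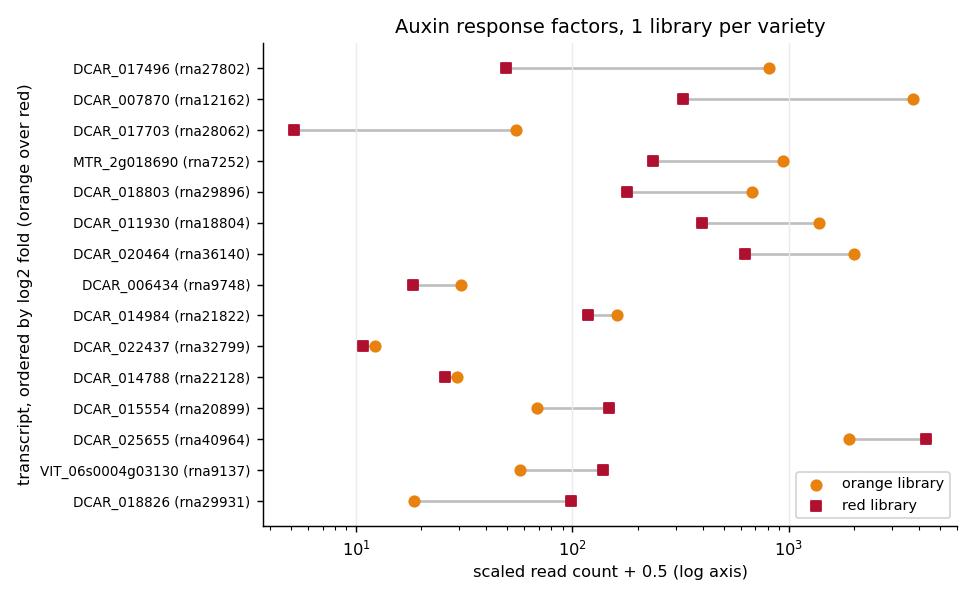
Scaled read count + 0.5 (log axis) of the 15 measured ARFs, ordered by log2 fold with the highest at the top; circles are the orange library and squares the red library, 1 library each. DCAR_025655 has the rightmost square, with its circle to the left of it, whereas DCAR_007870 has the rightmost circle, 11.6-fold above its square.

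Aux/IAA-type reads were spread over more members, and their leading members also differed. In orange, DCAR_012517 held 18.7% of the family's counts and POPTR_010G078400v3, a poplar gene name, 15.9%; in red the same transcripts held 5.39% (DCAR_012517) and 4.59%, and ranked 8 and 9. DCAR_012517 had 7168 counts in orange and 904 in red (9.03-fold, 8.42 to 9.69). POPTR_010G078400v3 had 6113 counts in orange and 771 in red (9.03-fold, 8.37 to 9.74). In red the leading pair was DCAR_010763 (4.63% of the family in orange, 12.3% in red) and DCAR_003885 (3.91% in orange, 11.4% in red).

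Those leading transcripts of the red library were close to equal between libraries. DCAR_010763 had 1774 counts in orange and 2057 in red, a ratio of 0.982 (0.921 to 1.05). DCAR_003885 had 1499 counts in orange and 1914 in red, a ratio of 0.892 (0.833 to 0.955). Their log2 folds of -0.03 and -0.17 became 0.39 and 0.25 with total-count scaling, so the direction of either difference depends on scaling. The other 2 of the 6 members of highest mean count were moderately higher in orange: DCAR_030713, ranked 3 in both libraries, had 3679 counts in orange and 1740 in red (2.41-fold, 2.27 to 2.55), and DCAR_012061 had 3220 in orange and 1320 in red (2.78-fold, 2.60 to 2.96).

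**Figure D3:**
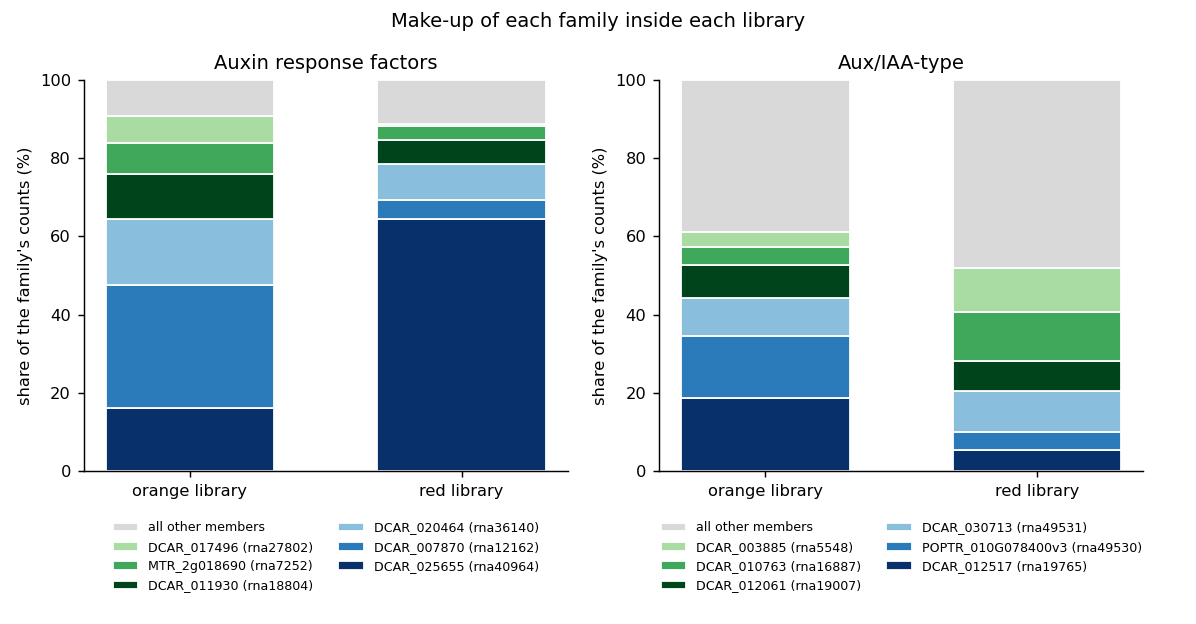
Share of each family's counts (%) taken by its 6 members of highest mean scaled count and by all others, in the orange and the red library. For ARFs the bottom segment, DCAR_025655, fills 16.0% of the orange bar and 64.4% of the red bar; for Aux/IAA-type transcripts DCAR_012517 fills 18.7% of the orange bar and 5.39% of the red bar.

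The effective number of members (the inverse of the summed squared shares) puts this spread in 1 value. It was 5.51 in orange and 2.31 in red for ARFs, and 10.8 in orange and 13.8 in red for Aux/IAA-type transcripts. The ARF reads were thus spread over more members in orange, and the Aux/IAA-type reads over fewer. The top 3 ARFs of each library held 64.5% of ARF counts in orange and 79.8% in red, and the top 3 Aux/IAA-type transcripts held 44.2% of theirs in orange and 34.0% in red. Counts are not per length, so such shares are shares of reads and not of molecules.

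Among Aux/IAA-type transcripts with at least 10 counts in each library, 3 had the highest ratios toward orange. DCAR_002354 had 602 counts in orange and 17 in red (40.3-fold, 25.0 to 69.7). DCAR_012516 had 1371 counts in orange and 42 in red (37.2-fold, 27.3 to 51.8), and DCAR_002353 had 1303 in orange and 50 in red (29.7-fold, 22.4 to 40.2). All 3 had at least 602 counts in orange and at most 50 in red, and the width of their intervals comes mainly from the few red reads. Among rows named only "auxin-induced protein", with gene names of Macleaya, 2 of the 4 BVC80_9015g49 transcripts had few reads and almost all of them in orange: rna8096 had 78 counts in orange and 1 in red (88.8-fold, 15.5 to 3552), and rna8091 had 31 in orange and 0 in red. Against a floor of 3 counts in the red library, rna8091 had a ratio toward orange of 11.8 (exact lower limit 9.01). The 18 Aux/IAA-type transcripts higher in orange with reads in both libraries ran from 2.28-fold to 88.8-fold, with a median of 6.39-fold. Both ends of this range are low-count rows named only "auxin-induced protein" (rna8093 and rna8096). Without rows of that name the range was 2.41-fold (DCAR_030713) to 40.3-fold (DCAR_002354).

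The 6 Aux/IAA-type transcripts higher in red included 1 with no reads in orange. DCAR_021321 had 0 counts in orange and 90 in red and was 26.3-fold higher in red against the same floor in the orange library (exact lower limit 21.0). DCAR_016231 had 29 counts in orange and 284 in red (8.60-fold higher in red, 5.86 to 13.1). The most abundant of the 6 was a DCAR_007553 transcript (rna42033), with 416 counts in orange and 1458 in red (3.08-fold higher in red, 2.76 to 3.44). The other named ones had few reads in orange: DCAR_023629 (rna37848) had 2 counts in orange and 34 in red (14.9-fold higher in red, 3.83 to 128), and DCAR_030810 (rna49663) had 2 in orange and 23 in red (10.1-fold higher in red, 2.50 to 88.4). The 8 Aux/IAA-type transcripts below the minimum had 0 to 9 counts in orange and 0 to 4 in red. The transcript that carries a family name of its own, IAA26, had 265 counts in orange and 412 in red (1.37-fold higher in red, 1.17 to 1.60). It was under 2-fold and was called in neither direction. Its log2 fold of -0.45 is close in size to the 0.42 by which total-count scaling moves ratios toward orange. IAA26 was singled out with its values known.

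**Figure D4:**
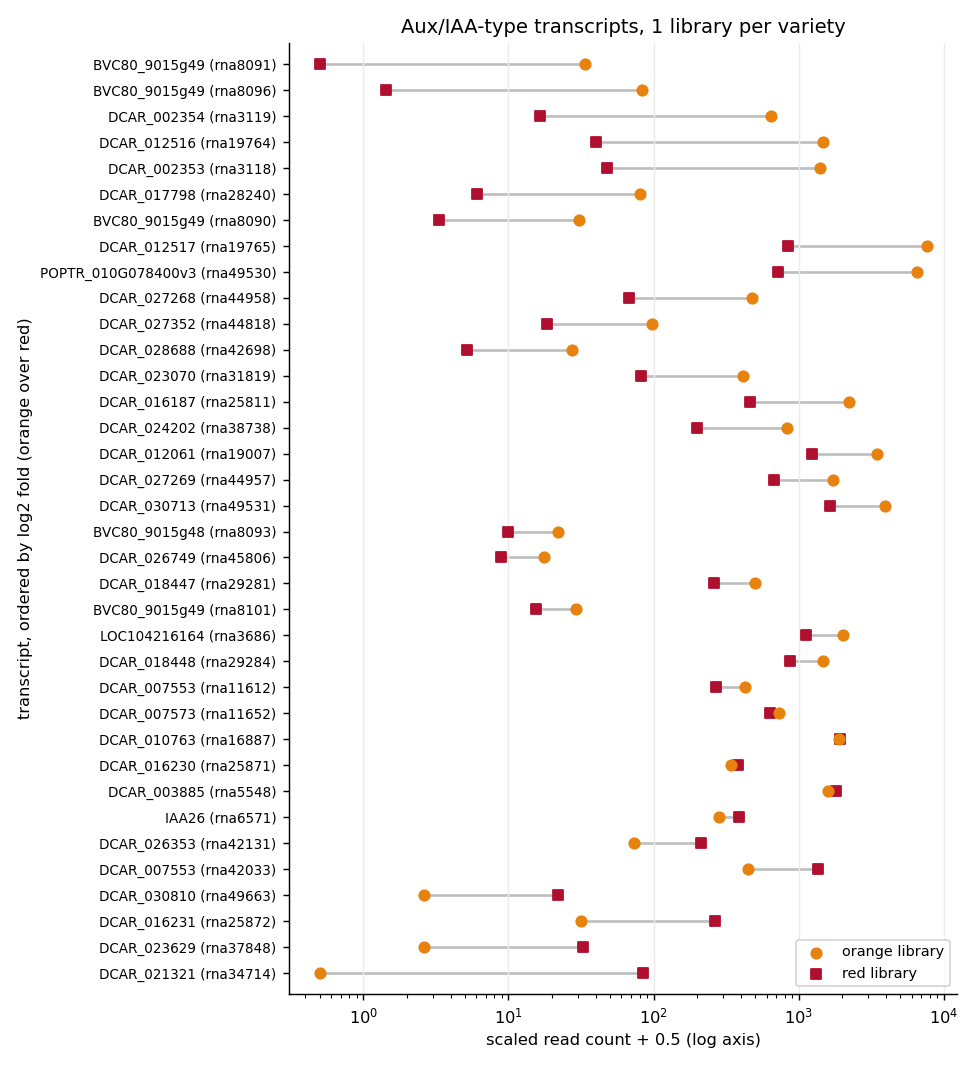
Scaled read count + 0.5 (log axis) of the 36 measured Aux/IAA-type transcripts, ordered by log2 fold with the highest at the top; circles are the orange library and squares the red library, 1 library each. Points at 0.5 stand for a count of 0, as for rna8091 in red and DCAR_021321 in orange; wide separations at high counts are those of DCAR_002354, DCAR_012516 and DCAR_002353.

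Transcripts of 1 gene name did not always go the same way. For DCAR_007553, rna42033 was 3.08-fold higher in red whereas rna11612 had 397 counts in orange and 288 in red (1.57-fold, 1.35 to 1.83), and rna11611 had 0 in orange and 3 in red. Summed over these 3 transcripts, the name had 813 counts in orange and 1749 in red, 1.89-fold higher in red. For DCAR_023629, the second transcript (rna37849) had 6 counts in orange and 1 in red, and for DCAR_030810 the second (rna7575) had 6 in orange and 0 in red, both opposite to their partners but at few reads. How reads were divided among similar transcripts is not stated in the labels or headers. Whether transcripts of a shared name come from 1 gene was not checked. Both the single transcripts of a shared name and their sum are therefore uncertain.

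Members whose transcript identifiers lie within 3 of each other formed 11 runs with 29 transcripts, a grouping made after the values were seen. Identifier numbers are not coordinates, and positions were not used here. DCAR_002353 and DCAR_002354 (rna3118 and rna3119) were both over 25-fold higher in orange, as given above. DCAR_012516 and DCAR_012517 (rna19764 and rna19765) were also both higher in orange, by 37.2-fold and 9.03-fold, as were POPTR_010G078400v3 and DCAR_030713 (rna49530 and rna49531), by 9.03-fold and 2.41-fold. DCAR_016230 and DCAR_016231 (rna25871 and rna25872) differed: the first had 318 counts in orange and 405 in red, a ratio of 0.894 (0.769 to 1.04), and the second was 8.60-fold higher in red. These pairs were picked from the 11 runs, and the rest were mixed. DCAR_027269 and DCAR_027268 were both called toward orange, by 2.53-fold and 7.08-fold, whereas DCAR_018447 and DCAR_018448 were called in neither direction. The DCAR_023629 transcripts went opposite ways, as given above.

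The ratio of the families inside each library needs no scaling. Aux/IAA-type counts were 3.44 times the ARF counts in orange (3.37 to 3.51) and 2.35 times in red (2.29 to 2.42). The orange ratio was 1.46 times the red ratio (exact conditional interval 1.41 to 1.51). This order rested on DCAR_025655: without it the ratio was 4.09 in orange and 6.62 in red (6.35 to 6.91), and the orange ratio was 0.618 times the red one (0.589 to 0.648). Without DCAR_012517, the most abundant Aux/IAA-type transcript, the ratios were 2.80 in orange (2.74 to 2.86) and 2.23 in red (2.17 to 2.29). Without both they were 3.33 in orange (3.25 to 3.40) and 6.27 in red (6.01 to 6.54). Leaving out the rows named only "auxin-induced protein" gave 3.42 in orange and 2.35 in red.

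**Figure D5:**
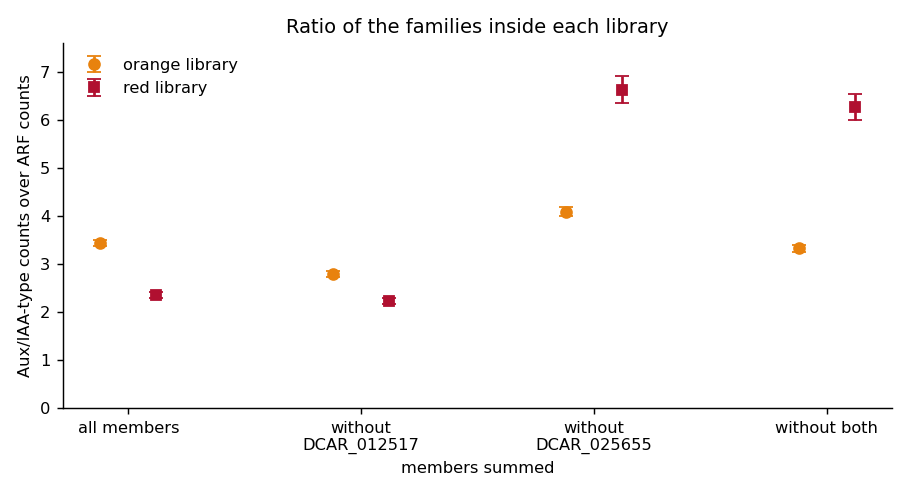
Aux/IAA-type counts divided by ARF counts inside the orange and the red library, with all members and without the most abundant member of either family or of both; bars are 95% exact intervals for counting error. The orange point lies above the red point with all members (3.44 in orange, 2.35 in red) and below it once DCAR_025655 is left out (4.09 in orange, 6.62 in red).

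The 6 transcripts named for SAUR or 15A-like proteins, small auxin-induced proteins tied to cell expansion in Arabidopsis, went both ways. The SAUR36_2 transcript (a tobacco gene name) had 32 counts in orange and 496 in red (13.6-fold higher in red, 9.52 to 20.1) and held 96.5% of the class's counts in red. The 15A-like LOC104589695 had 47 counts in orange and 0 in red, 17.8-fold higher in orange against the floor (exact lower limit 13.9). The SAUR22-like LOC107918887 had 46 in orange and 16 in red (3.27-fold, 1.82 to 6.19). The other 3, all SAUR21-like, were below the minimum: LOC104589687 had 14 counts in orange and 0 in red, and the 2 LOC108986951 transcripts each had 3 in orange and 1 in red. The class summed to 145 counts in orange and 514 in red, 3.11-fold higher in red (2.58 to 3.77), because of 1 transcript; by number, 2 of its 3 measured members were called toward orange. The identifiers of the SAUR21-like rows (rna8099, rna8102 and rna8105) lie in the same run as those of the 5 rows named only "auxin-induced protein" (rna8090, rna8091, rna8093, rna8096 and rna8101), which the protein name alone placed in the Aux/IAA-type class. Those 5 rows summed to 184 counts in orange and 30 in red (6.98-fold, 4.73 to 10.6), and 4 of them were called toward orange. Without them the Aux/IAA-type class had 15 of 31 measured transcripts called toward orange (48.4%), 6 toward red (19.4%) and a median log2 fold of 0.98. For the counts called in these small sets, the shares over all measured transcripts were 24.4% toward orange and 30.4% toward red.

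Other named steps of auxin signalling were mixed, with rows called toward orange, toward red or in neither direction. Over all measured transcripts, 24.4% were called toward orange and 30.4% toward red, so calls in both directions are common in these libraries. The receptor list held 2 transcripts: a TIR1-like one (LOC104215672) had 1706 counts in orange and 365 in red (5.32-fold, 4.75 to 5.98), and another (LOC107821218) had 49 in orange and 253 in red (4.53-fold higher in red, 3.33 to 6.29). The co-repressor TPR3, of the TOPLESS family, had 845 counts in orange and 3411 in red (3.55-fold higher in red, 3.29 to 3.83). A second TOPLESS transcript had 0 counts in orange and 5 in red. Cullin-1 (CUL1), the scaffold of the ubiquitin ligase that holds these receptors, had 1305 counts in orange and 1388 in red, a ratio of 1.07 (0.992 to 1.16). The same list took in 2 rows named for defective in cullin neddylation proteins, of which DCAR_016849 had 3186 counts in orange and 480 in red (7.56-fold, 6.86 to 8.34).

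Auxin transport and metabolism lists were small. Of 11 auxin efflux carriers, which move auxin out of cells, 9 were measured. Of these, 7 were called toward orange (77.8%) and 1 toward red (11.1%). The shares over all measured transcripts were 24.4% toward orange and 30.4% toward red. The carriers were led by DCAR_026777 (rna45754) with 2546 counts in orange and 134 in red (21.6-fold, 18.2 to 25.9). Flavin-containing monooxygenases, the family to which the YUCCA enzymes of auxin synthesis belong, had 10 of 16 transcripts measured. Of these, 4 were called toward orange and 3 toward red. Their share toward red was near the 30.4% over all measured transcripts, and their share toward orange was above the 24.4%. Their sums of 1767 counts in orange and 1950 in red gave a ratio of 1.03 (0.967 to 1.10) in the main scaling. As a share of all counts they took 0.0238% in orange (0.0227 to 0.0249) and 0.0172% in red (0.0165 to 0.018). Whether their sums were near equal therefore depends on scaling. The row named YUCCA4 had 0 counts in orange and 5 in red. A transcript named tryptophan aminotransferase-related protein 4 (EC 4.4.1.4) had 111 counts in orange and 259 in red (2.05-fold higher in red, 1.63 to 2.58). It was listed by its name only, and a role in auxin synthesis was not checked. An IAA-amino acid hydrolase, of the kind that frees auxin from conjugates, had 3 in orange and 47 in red (13.8-fold higher in red, 4.43 to 69.1). SAUR32, which the membership rule does not take, had 15 counts in orange and 2 in red. Patterns for influx carriers, GH3 enzymes, auxin-binding proteins, LOB domain proteins and BIG matched 0 rows by name.

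The authors' deposited tables hold a p-value for each transcript, though how the spread was estimated from 1 library per variety is stated in none of them. Of the 66 members, 6 in the authors' deposited table (9.09%) had a p of at most 0.05, beside 1198 of all 19838 transcripts (6.04%). They were, in the authors' deposited table, DCAR_002354, DCAR_012516, DCAR_002353 and DCAR_017496 with more in orange, and SAUR36_2 and DCAR_021321 with more in red. The smallest adjusted p among the members in the authors' deposited table was 0.343, for DCAR_002354.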

How the data were processed

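Root RNA of an orange and a red carrot variety, 1 library each, was compared. Groups come from the sample titles. Per the submitters' processing notes, the tools included HISAT and HTSeq, with FastQC and cutadapt, and DESeq; their versions, order and roles, and the genome build, are not given in the sources for this work. Read counts per transcript, with protein and gene names, were deposited by the authors. Their deposited normalised counts, a signal, are the counts times 1.07 for orange and 0.937 for red. The authors' deposited tables also hold a fold (a ratio, orange over red by their columns), its log2, and p-values.

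Size factors by the median of ratios were 0.937 for orange and 1.07 for red, and counts were divided by them. A member was called if its log2 fold, with a pseudocount of 0.5, reached 2-fold and its exact interval excluded equality. Ratios carry no pseudocount, and a ratio against 0 uses a floor of 3 counts. No p-value was made, because there is 1 library per variety. Alternatives were total-count and TMM scaling (edgeR 4.0.16), other minimums, a pseudocount of 5, and other sets of members. Scripts ran in Python 3.11.15 with scipy 1.17.1 and were tested on simulated counts.

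Classes were set by protein name. In each class the text names the 6 members of highest mean scaled count, the 5 measured members with the highest and the 5 with the lowest log2 fold, and measured members with 0 counts in 1 library; 34 transcripts meet this. Other members named in sentences on shared gene names, identifier runs or uncalled transcripts were chosen after their values were seen. The members and lists were chosen with earlier results of these data known. Gene names are those of the deposited table; 0 of the members' names matched the reference gene table, and transcript lengths were not used.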

Additional observations from a re-analysis of the deposited data

How the results depend on the processing

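No paired analysis was possible because each variety has 1 library, and no library could be left out. With total-count scaling, 1 ARF instead of 4 was at least 2-fold higher in red, and the log2 folds of the summed counts were 1.25 for ARFs (0.83 in the main scaling) and 1.80 for Aux/IAA-type transcripts (1.38), a shift of 0.42 that the scaling gives every ratio without a pseudocount. With a minimum mean scaled count of 50, the ARF median log2 fold was 1.68 over 11 transcripts and 3 Aux/IAA-type transcripts were higher in red, since fewer transcripts were tested. Without the most abundant member, the summed log2 fold was 2.07 for ARFs and 1.16 for Aux/IAA-type transcripts, and the ratio of Aux/IAA-type to ARF counts, without the most abundant member of each, was 3.33 in orange and 6.27 in red, which turns the order of the libraries round. The other alternatives kept each family count within 1.5 times and each median and sum on the orange side; TMM scaling moved no call. No named transcript past 2-fold changed its direction under total-count scaling, TMM scaling or a pseudocount of 5; 13 of 34 log2 folds left their counting interval with total-count scaling, and 4 did with a pseudocount of 5. Division by transcript length was planned and not run, since no lengths were matched. The 12 members below the minimum had at most 14 counts in a library and were not called in the main scaling.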
